A study of Mus musculus with 11 samples.

Results

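RNA of the airway of OVA/LPS/GGsTop mice was compared with that of PBS mice, as 4 libraries against 3, in a series of 11 libraries whose other 4 come from the OVA/LPS/Vehicle group. The members are the libraries labelled OLG 1 to 4 and PBS 1 to 3, and genes averaging 0.5 FPKM or more across all 11 libraries were tested. This left 14004 of the 21899 genes listed. Genes at or near 0 in all PBS libraries passed this filter only through the other groups, so they could hardly be called lower. Among the genes named these include Clca1, Muc5ac, Chil4, Retnlb and Rnase2a. FPKM are fragments mapped to a gene, scaled to its exon length and to the depth of the library. The question is which part of the allergic airway response was present under GGsTop, an inhibitor of γ-glutamyl transferase.

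All animals were wild-type male BALB/c mice. OVA/LPS/GGsTop mice were sensitised to ovalbumin with alum, challenged with ovalbumin through the nose, given LPS through the nose later, and dosed with GGsTop into the trachea from the day of the last LPS dose on. PBS mice were not sensitised and received PBS only, so the groups differ in ovalbumin, alum, LPS and GGsTop together, and these cannot be told apart here. The labels name the tissue trachea, whereas the methods of the study describe bluntly dissected airway. Whether each library is 1 mouse is not stated, the p-values therefore measure the spread between these libraries, and the clock hour of dissection is not given in the sources used here. In bulk tissue, fewer cells of a type and less RNA per cell cannot be told apart.

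In an allergic airway, type 2 lymphocytes release IL-4, IL-5 and IL-13. IL-13 acts through STAT6 on the epithelium, which turns to mucus production, and on macrophages and stroma, which release chitinase-like proteins and eotaxins that draw eosinophils. γ-Glutamyl transferase sits on the cell surface, starts the breakdown of extracellular glutathione and converts one cysteinyl leukotriene into the next.

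The fragments behind each library, taken from the step by which its FPKM rise, numbered 15062757, 15502789 and 18632382 in PBS 1 to 3 and 15057817, 14513136, 15777202 and 14799640 in OVA/LPS/GGsTop 1 to 4. At this depth 1 fragment on 1 kb of exon is worth between 0.0537 (PBS 3) and 0.0689 FPKM (OVA/LPS/GGsTop 2), so that values near this size rest on single fragments. The club cell gene Scgb1a1 was the most abundant gene of every library. Scgb1a1 was listed at 32159, 26145 and 37867 FPKM in PBS 1 to 3 and at 42233, 39538, 47126 and 38967 FPKM in OVA/LPS/GGsTop 1 to 4, as airway epithelium would give. Sftpc, the surfactant gene of alveolar type 2 cells, was at 8824, 8176 and 12502 FPKM in PBS 1 to 3 and at 5805, 7323, 9516 and 3541 FPKM in OVA/LPS/GGsTop 1 to 4. Peripheral lung is thus in all 7 libraries, which a trachea alone would not hold. The tracheal basal cell keratin Krt5 was at 0.816, 12.9 and 0.0977 FPKM in PBS 1 to 3. In OVA/LPS/GGsTop 1 to 4 Krt5 was at 2.3, 7.12, 0.0289 and 33.1 FPKM. It was thus near 0 in PBS 1, PBS 3 and OVA/LPS/GGsTop 3. A basal and hillock epithelium list summed to 23.93, 75.01 and 21.98 FPKM in PBS 1 to 3 and to 32.22, 45.84, 27.02 and 128.3 FPKM in OVA/LPS/GGsTop 1 to 4.

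Several libraries stood apart before any comparison. In PBS 3, values rose with the GC content of the gene by 0.533 log2 per 10 points of GC, against 0.0464 to 0.108 in the 6 other libraries compared, and mitochondrially encoded genes took 2.08% of its FPKM total, against 6.39% to 11.1% in the others. PBS 2 was unlike PBS 1 and PBS 3 in another way, since the 14 genes of a cardiac muscle list summed to 2173 FPKM there, against 108.5 in PBS 1 and 161.6 in PBS 3, and to 1086, 2537, 676.5 and 2894 FPKM in OVA/LPS/GGsTop 1 to 4. The most abundant of these genes was the atrial light chain Myl7, at 1.01, 767 and 25.8 FPKM in PBS 1 to 3 and 352, 937, 225 and 1081 FPKM in OVA/LPS/GGsTop 1 to 4. The alveolar list of 16 genes, led by Sftpc, summed to 12260, 10970 and 17490 FPKM in PBS 1 to 3 and to 8232, 10050, 12810 and 5061 FPKM in OVA/LPS/GGsTop 1 to 4. An adipocyte list of 16 genes, led by Cfd, summed to 303.3, 798.5 and 105.1 FPKM in PBS 1 to 3 and to 127.2, 576, 88.51 and 831.2 FPKM in OVA/LPS/GGsTop 1 to 4. The first of these measures did not separate the groups in an exact two-sided permutation test (GC slope p = 0.4286, mitochondrial share p = 0.1714, and for total fragments p = 0.2, where the smallest p that 3 against 4 libraries allow is 0.0286). Across 13987 genes, which are not independent, the difference between the groups followed GC content with a Spearman correlation of -0.338, which was 0.036 without PBS 3 and -0.039 after GC correction. Calls without PBS 3 and without PBS 2 are given with the results. Those with the GC correction are given where the number called changed. The part of the alveolar and adipocyte levels was not tested.

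**Figure D1:**
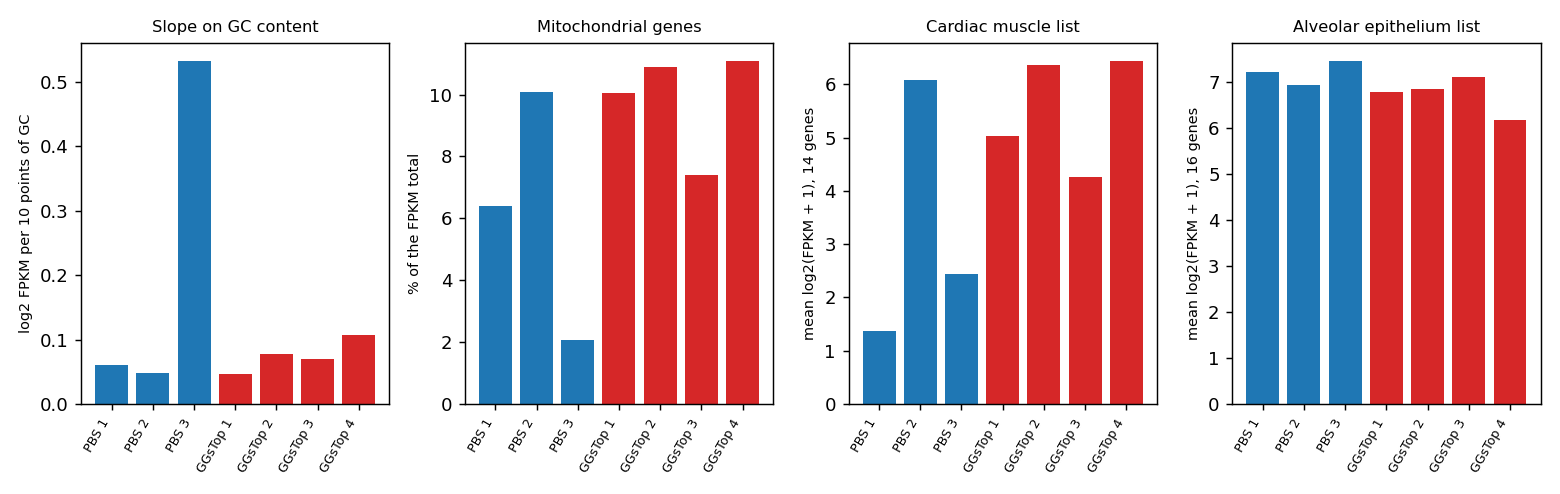
Each bar is 1 library (blue, PBS 1 to 3; red, OVA/LPS/GGsTop 1 to 4), and the panels give the slope of log2 FPKM on GC content, the mitochondrial share of the FPKM total in percent, and the mean log2(FPKM + 1) of the cardiac and alveolar lists. PBS 3 has the steepest slope (0.533 log2 per 10 points) and the smallest mitochondrial share (2.08%), and PBS 2 lies with OVA/LPS/GGsTop 2 and 4 on the cardiac list.

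At an adjusted p under 0.05 (limma, Benjamini-Hochberg over all genes tested), 288 genes were higher in OVA/LPS/GGsTop than in PBS (2.06% of the genes tested) and 115 were lower (0.821%), together 2.88%. Differences are of mean log2(FPKM + 1), OVA/LPS/GGsTop minus PBS, and are given in log2 units. Of all 14004 genes tested, 7148 (51.0%) had a difference above 0 and 6855 below 0. An unadjusted p under 0.05 was reached by 1502 higher and 1371 lower genes. For 283 of the 288 higher genes and all 115 lower genes the 4 OVA/LPS/GGsTop libraries lay wholly on 1 side of the 3 PBS libraries, a pattern that 7.22% (higher) and 7.54% (lower) of all genes tested showed. Without PBS 3 the counts were 39 and 17 (0.278% and 0.121%), without PBS 1 they were 21 and 8, without OVA/LPS/GGsTop 1 they were 27 and 9, and without PBS 2 they were 955 and 642 (6.82% and 4.58%). With a correction for GC content 387 genes were higher and 208 lower (2.77% and 1.49%, together 4.25%). When the 7 libraries compared were fitted alone, without the OVA/LPS/Vehicle libraries, 30 were higher and 9 lower. With the shared replicate numbers as a block 70 were higher and 25 lower (0.5% and 0.179%). The block was fitted in the 7 libraries alone, and OVA/LPS/GGsTop 4, which has no partner in PBS, does not enter its difference. Higher genes made up 71.5% of the calls on the deposited values and 50.7% when libraries were scaled to the same FPKM total. All 403 called genes kept their direction in each of the 23 alternative fits in which they were tested. Called in all of these fits were 17 genes, namely Retnla, Clca1, Jchain, Ccna1, Ccno, Tsnaxip1, Dbp, Per2, Per3, Tef, Wee1, Alas1 and Fam107a on the higher side and Arntl, Spon2, Adra1a and Prf1 on the lower side. Of the 85 called genes named here, 34 were also called when the 7 libraries were fitted alone. These were the 17 above and Ccr7, Chil3, Chil4, Ddit4, Derl3, Fcmr, Fkbp5, Gzma, Herpud1, Hsph1, Klf15, Mmp12, Myb, Prg2, Rnase2a, Slpi and Tsc22d3, while the other 51 were not (adjusted p of 0.0573 to 0.169).

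**Figure D2:**
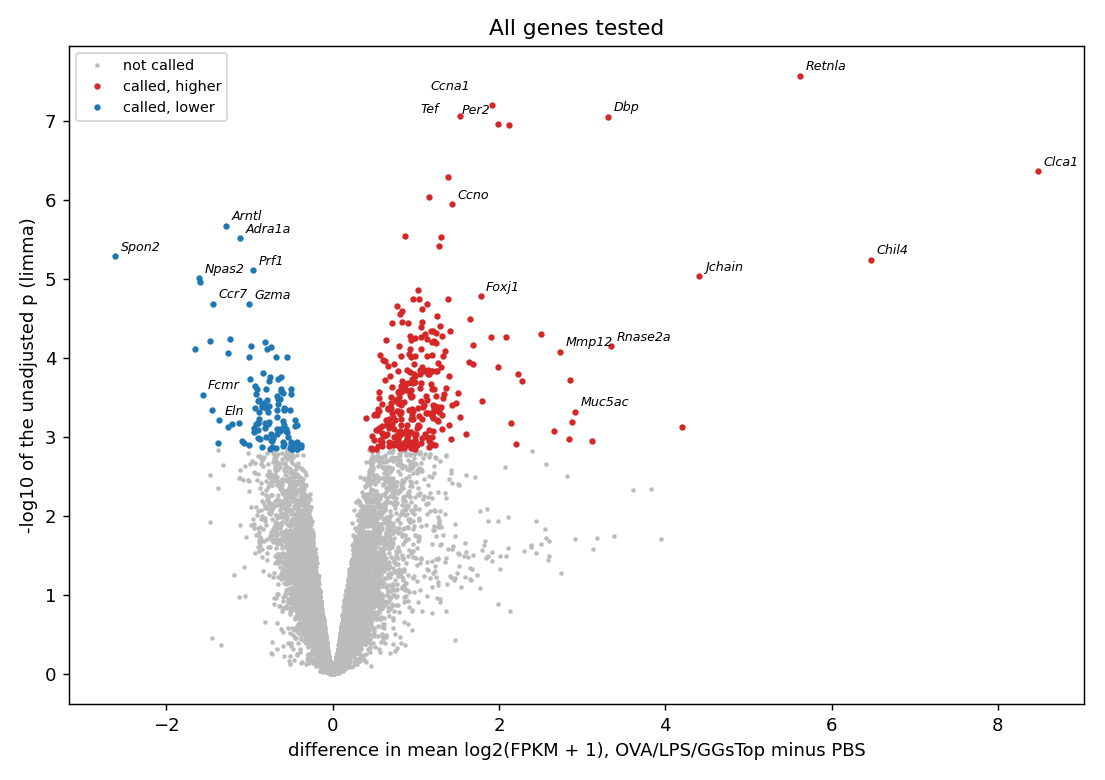
Each point is 1 of the 14004 genes tested, with the difference in mean log2(FPKM + 1), OVA/LPS/GGsTop minus PBS, on the x axis and the negative log10 of the unadjusted limma p on the y axis; red marks the 288 genes called higher and blue the 115 called lower. Clca1 (8.48), Chil4 (6.47) and Retnla (5.62) lie farthest right, and Spon2 (-2.61) farthest left.

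Several genes of mucus production were far above the PBS level. The goblet cell list has 18 tested genes, of which 5 were called higher and none lower, with a median log2 difference of 1.74 against 0.01 over all genes tested. Without PBS 3 it held 1 call and without PBS 2 it held 10, all higher. Its summed level was 112.1, 234.1 and 136.6 FPKM in PBS 1 to 3 and 1035, 1248, 230.3 and 2408 FPKM in OVA/LPS/GGsTop 1 to 4, with OVA/LPS/GGsTop 3 at the level of PBS 2. Clca1, a secreted protease that processes the mucus gel, was the member with the largest difference. Clca1 was at 0, 0.376 and 0.554 FPKM in PBS 1 to 3 and at 589, 714, 67 and 1557 FPKM in OVA/LPS/GGsTop 1 to 4. Clca1 rose by 8.48 log2 units (SE 0.83, adjusted p = 0.00087). The PBS libraries were at or near 0, and all OVA/LPS/GGsTop libraries were far above them, OVA/LPS/GGsTop 3 the least. Muc5ac, the gel-forming mucin induced in allergy, was at 0.0556, 0.42 and 0.11 FPKM in PBS 1 to 3 and at 7.84, 10.5, 1.51 and 23.8 FPKM in OVA/LPS/GGsTop 1 to 4. Muc5ac rose by 2.91 log2 units (SE 0.60, adjusted p = 0.0302). Spdef, the transcription factor that drives goblet cell differentiation, rose from 0.781 ± 0.344 FPKM in PBS (SD, n = 3) to 6.19 ± 3.36 FPKM in OVA/LPS/GGsTop (SD, n = 4), with no overlap between the groups. Spdef rose by 1.91 log2 units (SE 0.31, adjusted p = 0.0144). The constitutive mucin Muc5b and the trefoil peptide Tff2 were also called (log2 differences 3.11 and 4.20, adjusted p = 0.0452 and 0.0372), but PBS 2 overlapped the OVA/LPS/GGsTop range for both, at 13 and 11.5 FPKM, and with the replicate block the adjusted p was 0.054 and 0.056. Among the members that did not pass, Itln1, an intelectin, was at 1.22, 1.47 and 0.8 FPKM in PBS 1 to 3 and 16, 19.3, 1.67 and 27.7 FPKM in OVA/LPS/GGsTop 1 to 4 without overlap (adjusted p = 0.0583). OVA/LPS/GGsTop 4 was the highest and OVA/LPS/GGsTop 3 the lowest library of its group for Clca1, Muc5ac, Spdef, Muc5b, Tff2 and Itln1. Clca1 kept its call without each library in turn, whereas those of Spdef, Muc5ac, Muc5b and Tff2 were lost without OVA/LPS/GGsTop 1, PBS 1 or PBS 3, all but Spdef also without OVA/LPS/GGsTop 2, and Muc5b and Tff2 without OVA/LPS/GGsTop 4, with adjusted p of 0.0516 to 0.169. Muc5ac and Tff2 also lost the call when limma voom was run on the fragments recovered from the FPKM (adjusted p = 0.102 and 0.182).

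Calls were also found among chitinase-like and resistin-like proteins, which macrophages and epithelium release in type 2 inflammation. Of 9 tested genes 3 were called higher and none lower (median 0.92), with 2 called higher without PBS 3 and 3 without PBS 2. Retnla, the resistin-like molecule RELMα, is the gene with the smallest p in the whole comparison. Retnla was at 36.7, 51 and 74.8 FPKM in PBS 1 to 3 and at 2628, 3689.7, 1188 and 4025 FPKM in OVA/LPS/GGsTop 1 to 4. Its mean was 53.2-fold higher, a difference of 5.62 log2 units (SE 0.42, adjusted p = 0.000266). The lowest OVA/LPS/GGsTop library was above the highest PBS library by more than an order of magnitude. Chil4, the chitinase-like protein Ym2, was listed at 0, 0 and 0.114 FPKM in PBS 1 to 3 and at 217, 115, 12.1 and 216 FPKM in OVA/LPS/GGsTop 1 to 4. Chil4 rose by 6.47 log2 units (SE 0.82, adjusted p = 0.00472), and it passed the filter only through the other groups. Its close paralog Chil3 (Ym1), which resting alveolar macrophages already express, rose from 60.3 ± 14.3 FPKM in PBS (SD, n = 3) to 458 ± 175 FPKM in OVA/LPS/GGsTop (SD, n = 4), a mean 7.6 times as high. Chil3 rose by 2.85 log2 units (SE 0.53, adjusted p = 0.0215). How the counting treated reads shared by these paralogs is not given. The epithelial member Retnlb was listed at 0 in all PBS libraries and at 0.954, 0.594, 0.364 and 1.36 FPKM in OVA/LPS/GGsTop 1 to 4, and did not pass (adjusted p = 0.109). Chia1, the acidic chitinase, was at 29.6, 31.7 and 41.7 FPKM in PBS 1 to 3 and 53.7, 88.2, 54.2 and 70.4 FPKM in OVA/LPS/GGsTop 1 to 4 and did not pass either (adjusted p = 0.0624). The calls of Retnla and Chil4 held without each library in turn, but that of Chil4 was lost with limma voom on recovered fragments (adjusted p = 0.156). That of Chil3 was lost without OVA/LPS/GGsTop 1 or 2, PBS 1 or PBS 3, with adjusted p of 0.059 to 0.0912.

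The 250 bases before the start of Retnla (RefSeq, GRCm38.p6, plus strand, chr16:48842359-48842608) are shown because Retnla led the comparison and because they hold the palindrome TTCNNNNGAA, the spacing bound by STAT6, in capitals, starting 145 bases before the gene's start.
Retnla: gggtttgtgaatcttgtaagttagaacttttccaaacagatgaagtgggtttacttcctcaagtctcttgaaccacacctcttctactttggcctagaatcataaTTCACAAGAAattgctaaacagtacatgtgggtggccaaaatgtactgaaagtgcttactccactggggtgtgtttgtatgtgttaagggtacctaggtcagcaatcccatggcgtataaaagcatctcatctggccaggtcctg
Both strands were searched. The same letters were found in 1923 of 32851 RefSeq promoters of this length (5.85%), and among the 8 promoters that could be matched for Retnla, Chil3, Chil4, Spdef, Ccl8, Rnase2a and Il1rl1, only that of Retnla held them.

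Chemokines that draw eosinophils and Th2 cells and genes of eosinophils held 4 calls, all higher. Ccl11, eotaxin-1, was at 2.27, 5.25 and 0.893 FPKM in PBS 1 to 3 and at 14.8, 18.9, 8.67 and 19.7 FPKM in OVA/LPS/GGsTop 1 to 4. Ccl11 rose by 2.23 log2 units (SE 0.40, adjusted p = 0.02). Ccl8, a monocyte chemokine that also attracts Th2 cells through CCR8 in mice, was at 2.21, 8.96 and 2.21 FPKM in PBS 1 to 3 and at 19.2, 54.1, 19 and 61.4 FPKM in OVA/LPS/GGsTop 1 to 4. Ccl8 rose by 2.87 log2 units (SE 0.62, adjusted p = 0.0348). Neither gene overlapped between the groups, and they were the 2 called members of 6 tested on the list of eotaxins and Th2-attracting chemokines (median 1.04). Of 10 tested eosinophil genes 2 were called higher and none lower (median 0.49). Neither list held a call without PBS 3, and each kept 2 called higher without PBS 2. Rnase2a (also Ear11), a ribonuclease of the eosinophil-associated family, was listed at 0 in all PBS libraries and at 8.28, 11, 3.03 and 22.7 FPKM in OVA/LPS/GGsTop 1 to 4. Rnase2a passed as higher (adjusted p = 0.0151), and no fold is given against a group listed at 0. It passed the filter only through the other groups, so it could not be called lower. How the counting treated reads shared with its close relatives is not given. Prg2, major basic protein of the eosinophil granule, rose from 0.313 ± 0.23 FPKM in PBS (SD, n = 3) to 1.97 ± 0.314 FPKM in OVA/LPS/GGsTop (SD, n = 4) without overlap. Prg2 rose by 1.19 log2 units (SE 0.19, adjusted p = 0.0144). Epx, eosinophil peroxidase, reached at most 0.17 FPKM in any of the 7 libraries, a value of a few fragments. Ccr3, the eotaxin receptor, was at 1.36, 0.69 and 0.476 FPKM in PBS 1 to 3 and 3.86, 4.42, 1.39 and 3.63 FPKM in OVA/LPS/GGsTop 1 to 4 without overlap, and did not pass (adjusted p = 0.17). The calls of Ccl11, Ccl8, Rnase2a and Prg2 were lost without OVA/LPS/GGsTop 1, PBS 1 or PBS 3, those of Ccl11 and Ccl8 also without OVA/LPS/GGsTop 2, and that of Ccl8 without OVA/LPS/GGsTop 4, with adjusted p of 0.0516 to 0.141. With limma voom on recovered fragments Ccl8 and Rnase2a were lost too (adjusted p = 0.118 and 0.0729).

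Among type 2 cytokines and receptors, 1 of 13 tested genes was called (median 0.32), none without PBS 3, and 2 higher and 2 lower without PBS 2. Over all genes tested 2.88% were called. The called gene was Il1rl1, the IL-33 receptor ST2, at 0.799, 1.28 and 0.934 FPKM in PBS 1 to 3 and 2.62, 2.78, 1.86 and 2.57 FPKM in OVA/LPS/GGsTop 1 to 4. Il1rl1 rose by 0.78 log2 units (SE 0.18, adjusted p = 0.0453). Its call was lost with the GC correction (adjusted p = 0.0775), with the replicate block (adjusted p = 0.0712) and without any library other than OVA/LPS/GGsTop 3 or PBS 2 (adjusted p of 0.0971 to 0.152). Il5 reached at most 0.0825 FPKM and Il13 at most 0.316 FPKM in the 7 libraries, under the filter, so each rests on few fragments. Il4 was at 2.81, 2.89 and 0.831 FPKM in PBS 1 to 3 and 4.82, 3.26, 2.89 and 4.63 FPKM in OVA/LPS/GGsTop 1 to 4, and its log2 difference of 0.68 (95% interval 0.14 to 1.23) did not pass (adjusted p = 0.157). Il33 was at 20.7, 16.6 and 16.1 FPKM and 20.5, 25.3, 25.2 and 19 FPKM in the same order (log2 difference 0.32, 95% interval -0.19 to 0.83, adjusted p = 0.452).

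**Figure D3:**
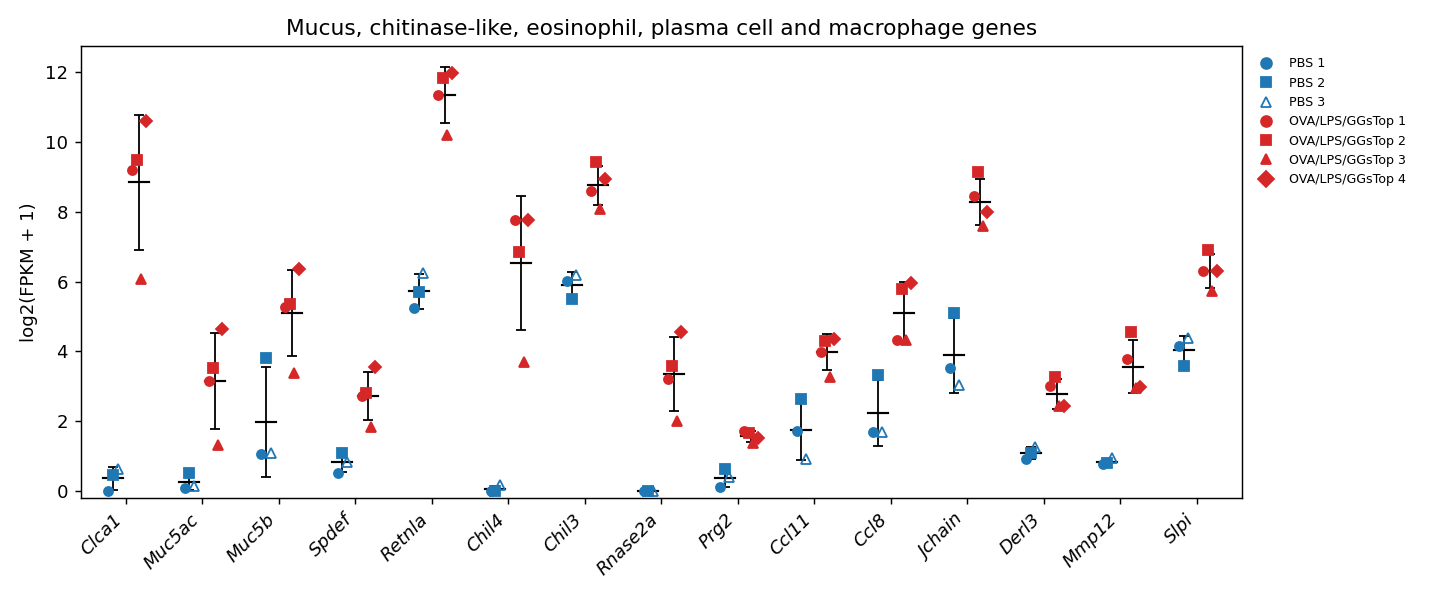
Each symbol is 1 library (blue, PBS; red, OVA/LPS/GGsTop; the shape gives the library number), the y axis is log2(FPKM + 1), and the bars are the mean and SD of each group. Clca1, Retnla and Chil4 show the widest gaps between the groups, OVA/LPS/GGsTop 3 is the lowest library of its group for most mucus genes, and PBS 2 reaches the OVA/LPS/GGsTop range for Muc5b (13 against 9.46 FPKM in OVA/LPS/GGsTop 3).

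Single genes of macrophages and of antibody-secreting cells rose, where 2.06% of all genes tested were called higher. Mmp12, the elastase of macrophages, was the 1 called gene of 19 tested on the macrophage list (median 0.37), which held no call without PBS 3 and 3 on the higher side without PBS 2, and 2 with the GC correction or the block. Mmp12 was at 0.706, 0.731 and 0.905 FPKM in PBS 1 to 3 and at 12.7, 22.5, 6.72 and 6.91 FPKM in OVA/LPS/GGsTop 1 to 4. Mmp12 rose by 2.74 log2 units (SE 0.46, adjusted p = 0.016). C1qa, a complement gene of tissue macrophages, was at 32.7, 42.9 and 41.2 FPKM in PBS 1 to 3 and 54.5, 78.7, 56.4 and 82.3 FPKM in OVA/LPS/GGsTop 1 to 4 without overlap, and did not pass (log2 difference 0.77, adjusted p = 0.0541). Slpi, an epithelial antiprotease that inhibits neutrophil elastase, was at 16.7, 11 and 19.9 FPKM in PBS 1 to 3 and 77.7, 120.3, 52.4 and 77.5 FPKM in OVA/LPS/GGsTop 1 to 4 (log2 difference 2.27, SE 0.42, adjusted p = 0.0218), and was picked after its values were seen. Jchain, which joins polymeric IgA and IgM and marks plasma cells, was at 10.5, 33.2 and 7.16 FPKM in PBS 1 to 3 and at 349, 563, 191 and 253 FPKM in OVA/LPS/GGsTop 1 to 4, a mean 20 times as high. Jchain rose by 4.41 log2 units (SE 0.58, adjusted p = 0.00683). Derl3, a protein-degradation factor abundant in plasma cells, rose from 1.14 ± 0.251 FPKM in PBS (SD, n = 3) to 6.08 ± 2.09 FPKM in OVA/LPS/GGsTop (SD, n = 4) (log2 difference 1.68, adjusted p = 0.0151). These were the 2 called genes of 11 tested on the plasma cell list (median 0.26), where 1 was called higher without PBS 3, and 3 higher and 1 lower without PBS 2. With the GC correction 3 genes of that list were called higher and 1 lower. The immunoglobulin constant region genes were not analysed here. The call of Jchain held without each library in turn, and those of Mmp12, Slpi and Derl3 were lost without OVA/LPS/GGsTop 1, PBS 1 or PBS 3, and that of Slpi also without OVA/LPS/GGsTop 2 (adjusted p of 0.0548 to 0.0912).

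On the B cell list, 14 of 16 tested genes had a difference below 0, 10 of them without overlap, but only Fcmr passed in that direction (median -0.89). Over all 14004 genes tested, 6855 had a difference below 0, 7.54% lay lower without overlap and 0.821% were called lower. No gene of the list was called without PBS 3, 1 higher and 1 lower without PBS 2, and 1 higher and 3 lower with the GC correction. Fcmr, the IgM Fc receptor, was at 12.4, 14.6 and 11.8 FPKM in PBS 1 to 3 and at 3.98, 5.68, 2.41 and 3.31 FPKM in OVA/LPS/GGsTop 1 to 4. Fcmr fell by 1.56 log2 units (SE 0.30, adjusted p = 0.0254). Cd79b, a subunit of the B cell receptor, was at 33, 31.8 and 35.3 FPKM in PBS 1 to 3 and 13.9, 19.7, 10.2 and 17.1 FPKM in OVA/LPS/GGsTop 1 to 4 without overlap, and Pax5, the B cell identity factor, at 3.8, 4.64 and 3.73 FPKM and 1.67, 1.67, 1.01 and 1.83 FPKM. Neither passed (adjusted p = 0.0695 and 0.0582), whereas 7 genes of the list were called lower with the replicate block, Pax5 among them (adjusted p = 0.0459). The list summed to 162, 195.7 and 156 FPKM in PBS 1 to 3 and to 104.7, 127.6, 75.73 and 141.3 FPKM in OVA/LPS/GGsTop 1 to 4, led by Cd79a. Its 1 called gene on the higher side was Vpreb3, at 12.4, 19.3 and 16 FPKM in PBS 1 to 3 and 39.7, 34, 25.6 and 62.4 FPKM in OVA/LPS/GGsTop 1 to 4 (log2 difference 1.24, adjusted p = 0.0258). Ccr7, the receptor by which naive lymphocytes and migrating dendritic cells enter lymphoid tissue, fell from 16.4 ± 1.23 FPKM in PBS (SD, n = 3) to 5.46 ± 0.451 FPKM in OVA/LPS/GGsTop (SD, n = 4) without overlap (log2 difference -1.43, SE 0.21, adjusted p = 0.01; 0.0517 without PBS 3). All 13 tested genes on the list of lymphoid homing chemokines and lymphotoxins had a difference below 0, Ccr7 alone being called (median -0.51), as 1 gene was without PBS 2 and none without PBS 3, with 2 called lower with the GC correction and 2 with the block. The call of Fcmr was lost without OVA/LPS/GGsTop 1 or 4, PBS 1 or PBS 3 and that of Vpreb3 without OVA/LPS/GGsTop 1 or 2, PBS 1 or PBS 3 (adjusted p of 0.0548 to 0.113), the latter also with the block (0.071).

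Of 7 tested genes of cytotoxic lymphocytes 3 were called lower and none higher (median -0.78). Called lower were 2 without PBS 3, 3 without PBS 2, 4 with the GC correction and 1 with the block. The whole list of 16 genes summed to 40.62, 32.04 and 27.17 FPKM in PBS 1 to 3 and to 16.52, 16.43, 17.31 and 17.37 FPKM in OVA/LPS/GGsTop 1 to 4. Prf1, perforin, was at 2.88, 3.05 and 2.7 FPKM in PBS 1 to 3 and at 1.03, 0.987, 1.08 and 0.889 FPKM in OVA/LPS/GGsTop 1 to 4. Prf1 fell by 0.96 log2 units (SE 0.12, adjusted p = 0.00607). Gzma, granzyme A, was at 14.1, 10.3 and 11.9 FPKM in PBS 1 to 3 and at 4.62, 5.55, 5.73 and 6.04 FPKM in OVA/LPS/GGsTop 1 to 4. Gzma fell by 1.01 log2 units (SE 0.15, adjusted p = 0.01). The 4 OVA/LPS/GGsTop libraries were close to each other for both genes, and all lay under the lowest PBS library. Ncr1, the natural killer cell receptor NKp46, fell from 3.55 ± 0.813 FPKM in PBS (SD, n = 3) to 1.6 ± 0.151 FPKM in OVA/LPS/GGsTop (SD, n = 4) (log2 difference -0.80, adjusted p = 0.024). Gzmb was at 2.27, 2.52 and 1.91 FPKM and 0.879, 0.528, 0.839 and 1.36 FPKM in the same order without overlap and did not pass (adjusted p = 0.0766). Ifng, interferon gamma, reached at most 0.308 FPKM (PBS 1) and was under the filter. Perforin was called in every alternative, the call of Gzma was lost without PBS 1 (adjusted p = 0.055) and with the block (adjusted p = 0.0512), and that of Ncr1 was lost without OVA/LPS/GGsTop 1 or 2, PBS 1 or PBS 3 (adjusted p of 0.0617 to 0.102) and with the block (0.0775).

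No interferon response gene passed. Over all 14004 genes tested, 6855 had a difference below 0, and 7.54% lay lower without overlap. Of 28 tested genes on the interferon gamma and guanylate-binding protein list, 27 had a difference below 0, 7 without overlap, and none was called (median -0.33). Of 24 tested type I interferon-stimulated genes, 23 had a difference below 0, 6 without overlap, and none was called (median -0.35). Isg15, a ubiquitin-like protein of the antiviral response, came nearest, at 20.7, 15.1 and 23.4 FPKM in PBS 1 to 3 and 9.35, 12.3, 12.5 and 5.38 FPKM in OVA/LPS/GGsTop 1 to 4 (log2 difference -0.97, 95% interval -1.51 to -0.44, adjusted p = 0.0562). On the NFkB and LPS response list 1 of 33 tested genes was called, where 2.88% of all genes tested were. The called gene was Relb, a subunit of the alternative NFkB dimer, which fell from 11.7 ± 2.06 FPKM in PBS (SD, n = 3) to 7.42 ± 0.594 FPKM in OVA/LPS/GGsTop (SD, n = 4) (log2 difference -0.58, adjusted p = 0.0299). The NFkB list as a whole had a median of -0.07. Without PBS 2, 1 gene of the interferon gamma list, 5 type I interferon genes and 6 NFkB genes were called lower, and without PBS 3 none of the 3 lists held a call. With the GC correction 1 type I interferon gene and 2 NFkB genes were called lower. The call of Relb was also lost without PBS 1 and OVA/LPS/GGsTop 1 or 2 in turn (adjusted p of 0.0809 to 0.0877) and with the block (0.101).

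Motile cilia genes held 12 calls, all higher. On the ciliated epithelium list 12 of 24 tested genes were called higher and none lower, and 23 had a difference above 0 (median 1.08). Over all genes tested 2.06% were called higher and 51.0% had a difference above 0. The regulators that start multiciliogenesis, related to those of the cell cycle, come first. Mcidas, the coactivator at the top of the programme, was at 0.419, 0.163 and 0.294 FPKM in PBS 1 to 3 and at 3.19, 1.83, 1.47 and 3.41 FPKM in OVA/LPS/GGsTop 1 to 4. Mcidas rose by 1.39 log2 units (SE 0.20, adjusted p = 0.00965; 0.0664 in the 7 libraries alone). Ccno, the atypical cyclin needed to multiply basal bodies, was at 0.831, 1.16 and 1.2 FPKM in PBS 1 to 3 and at 4.31, 4.37, 3.85 and 5.9 FPKM in OVA/LPS/GGsTop 1 to 4. Ccno rose by 1.43 log2 units (SE 0.15, adjusted p = 0.0016). Ccna1, cyclin A1, named for its small p, was at 0.579, 0.633 and 0.526 FPKM in PBS 1 to 3 and at 5.03, 5.07, 3.94 and 6.04 FPKM in OVA/LPS/GGsTop 1 to 4. Ccna1 rose by 1.92 log2 units (SE 0.16, adjusted p = 0.000266). Each of the 3 lay at or under 1.2 FPKM in all PBS libraries and above that level in all OVA/LPS/GGsTop libraries. Foxj1, the transcription factor that switches on the genes of the axoneme, rose from 28.4 ± 7.08 FPKM in PBS (SD, n = 3) to 102 ± 37.5 FPKM in OVA/LPS/GGsTop (SD, n = 4) without overlap. Foxj1 rose by 1.78 log2 units (SE 0.25, adjusted p = 0.00965).

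Structural genes of the cilium were called as well. These were the dynein light chain Dynlrb2 (1.25), the ruler proteins Ccdc39 (1.18) and Ccdc40 (1.10), Cfap43 (1.51), the radial spoke head Rsph1 (1.27), the tektin Tekt1 (1.02) and the axonemal dynein chains Dnah11 (0.72), Dnaic1 (0.85) and Dnaic2 (1.16), all as log2 differences. The 1 member below 0 was Tppp3, a tubulin-binding protein abundant in mature ciliated cells, at 229, 248 and 339 FPKM in PBS 1 to 3 and 227, 245, 241 and 294 FPKM in OVA/LPS/GGsTop 1 to 4 (log2 difference -0.10, 95% interval -0.46 to 0.26). Tppp3 was the most abundant gene of the list, and the summed level of the list went from 527.9, 672 and 715.1 FPKM in PBS 1 to 3 to 881.6, 932.8, 745.3 and 1287 FPKM in OVA/LPS/GGsTop 1 to 4. Families were also picked by the start of the symbol, after the values were seen, and 51.0% of all genes tested had a difference above 0. Among genes named Cfap, 11 of 30 tested were called higher and 29 had a difference above 0 (median 0.89), and among axonemal dyneins and their assembly factors 7 of 20 were called higher and 19 were above 0 (median 0.88). Neither family held a call without PBS 3, while without PBS 2 they held 22 and 16, and with the block 5 and none, all higher. With the GC correction the 2 families held 16 and 11 calls, all higher. Further regulators singled out in the same way were Myb (0.97, adjusted p = 0.00965), the deuterosome gene Deup1 (1.54, 0.0322), Trp73 (0.86, 0.0276) and Hes6 (0.99, 0.016). Without PBS 3, 3 genes of the list were called and with the block 4, against 16 with the GC correction and 19 without PBS 2, and without PBS 1 the calls of Foxj1 and Myb were lost (adjusted p = 0.0543 and 0.0543). The 9 structural genes were each lost without OVA/LPS/GGsTop 1, PBS 1 or PBS 3, 7 of them also without OVA/LPS/GGsTop 2 and 4 also without OVA/LPS/GGsTop 4 (adjusted p of 0.0539 to 0.164), and all but Cfap43 with the block (0.0527 to 0.123). With the block Myb, Deup1, Trp73 and Hes6 were lost too (0.056 to 0.106), and the last 3 without PBS 1 or OVA/LPS/GGsTop 1, Deup1 and Trp73 also without PBS 3, and Deup1 without OVA/LPS/GGsTop 2 or 4 (adjusted p of 0.0516 to 0.134). With limma voom on recovered fragments Deup1, Dnaic1 and Dnaic2 were lost (adjusted p = 0.0612, 0.0547 and 0.053).

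Circadian genes separated the groups widely, and Tef, Dbp, Per3 and Per2 were among the 10 higher genes with the smallest p. The clock hour of dissection is not given, so a difference in that hour cannot be told apart here from the treatments. The clock turns on a loop in which BMAL1 (Arntl) with CLOCK or NPAS2 activates the Period, Cryptochrome, REV-ERB and PAR bZIP genes through E-box elements, and the first of these repress the activators in turn. Of 13 tested repressors and PAR bZIP factors 10 were called higher, none lower (median 1.44), while of 5 tested activators and Nfil3 2 were called lower, none higher (median -0.54). Dbp, a PAR bZIP factor with a deep daily rhythm in most tissues, was at 0.821, 2.52 and 0.538 FPKM in PBS 1 to 3 and at 27, 17.3, 21.3 and 16.9 FPKM in OVA/LPS/GGsTop 1 to 4. Dbp rose by 3.31 log2 units (SE 0.28, adjusted p = 0.000266). Per2 was at 5.12, 5.04 and 6.58 FPKM in PBS 1 to 3 and at 33.4, 19.9, 32.6 and 25.9 FPKM in OVA/LPS/GGsTop 1 to 4. Per2 rose by 2.12 log2 units (SE 0.18, adjusted p = 0.000266). Per3 was at 2.53, 3.4 and 2.45 FPKM in PBS 1 to 3 and at 18.9, 11.7, 15.4 and 10.9 FPKM in OVA/LPS/GGsTop 1 to 4. Per3 rose by 1.98 log2 units (SE 0.17, adjusted p = 0.000266). For these genes even the highest PBS library lay far below the lowest OVA/LPS/GGsTop library. Tef, a further PAR bZIP factor, rose from 14.7 ± 1.65 FPKM in PBS (SD, n = 3) to 44.8 ± 7.52 FPKM in OVA/LPS/GGsTop (SD, n = 4). Tef rose by 1.54 log2 units (SE 0.13, adjusted p = 0.000266). The REV-ERB genes Nr1d1 and Nr1d2 were called as well (log2 differences 1.99 and 2.51, adjusted p = 0.0192 and 0.0144), with PBS 2 the highest PBS library at 25.8 and 15.7 FPKM. Per1 (1.44), Hlf (1.33), Bhlhe40 (0.83) and Cry2 (0.72) complete the called members, with log2 differences in parentheses. Of these 10, Nr1d1, Nr1d2, Hlf and Per1 lost the call without OVA/LPS/GGsTop 1, PBS 1 or PBS 3, Per1 also without OVA/LPS/GGsTop 2, and Bhlhe40 and Cry2 without OVA/LPS/GGsTop 1 or PBS 1 (adjusted p of 0.0516 to 0.118). The same 6 were lost with the block (0.0536 to 0.0866).

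Arntl moved against them. It was at 5.89, 5.19 and 5.55 FPKM in PBS 1 to 3 and at 1.17, 1.9, 1.54 and 2.26 FPKM in OVA/LPS/GGsTop 1 to 4. Arntl fell by 1.28 log2 units (SE 0.15, adjusted p = 0.0027). Npas2 was at 6.53, 5.01 and 7.17 FPKM in PBS 1 to 3 and at 0.859, 1.63, 0.807 and 2.54 FPKM in OVA/LPS/GGsTop 1 to 4. Npas2 fell by 1.60 log2 units (SE 0.21, adjusted p = 0.00683). Both fell without overlap, whereas Clock itself, which has little rhythm in most tissues, was at 7.83, 7.85 and 5.72 FPKM and 5.98, 6.19, 6.28 and 6.38 FPKM in the same order (log2 difference -0.16, 95% interval -0.40 to 0.07). Cry1, a repressor whose daily peak comes late, was not among the called genes, at 10.5, 6.01 and 9.37 FPKM in PBS 1 to 3 and 6.68, 5.36, 6.68 and 5.93 FPKM in OVA/LPS/GGsTop 1 to 4 (log2 difference -0.40, 95% interval -0.76 to -0.03). Rhythmic output genes named by their small p were Wee1, a cell cycle kinase, which rose from 2.34 ± 0.4 FPKM in PBS (SD, n = 3) to 7.77 ± 0.992 FPKM in OVA/LPS/GGsTop (SD, n = 4), and Alas1, the first enzyme of haem synthesis, which rose from 37.7 ± 3.43 FPKM in PBS (SD, n = 3) to 85.4 ± 9.15 FPKM in OVA/LPS/GGsTop (SD, n = 4) (adjusted p = 0.000896 and 0.00142). Without PBS 3, 6 repressors and PAR bZIP factors and both activators were called, and with the block 4 and 2. Without PBS 2, 10 repressors and PAR bZIP factors were called higher and 1 lower, and 2 activators lower. With the GC correction 3 of the activators and Nfil3 were called lower. The calls of Dbp, Per2, Per3, Tef, Arntl, Npas2, Wee1 and Alas1 held without each library in turn, but Npas2 was not called in the 7 libraries alone (adjusted p = 0.0575).

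E-box letters are shown for 2 called members of this group, as the element through which the BMAL1 partners act. In the 250 bases before the RefSeq start (GRCm38.p6) the E-box CACGTG, in capitals, starts 166 bases before the first start of Per1 (plus strand, chr11:69098699-69098948) and 127 bases before the first start of Tef (plus strand, chr15:81802423-81802672).
Per1: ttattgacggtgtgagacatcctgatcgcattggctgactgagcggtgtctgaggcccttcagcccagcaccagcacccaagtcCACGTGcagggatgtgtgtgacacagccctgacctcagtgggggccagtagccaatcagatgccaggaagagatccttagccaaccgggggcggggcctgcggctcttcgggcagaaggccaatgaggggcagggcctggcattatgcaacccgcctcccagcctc
Tef: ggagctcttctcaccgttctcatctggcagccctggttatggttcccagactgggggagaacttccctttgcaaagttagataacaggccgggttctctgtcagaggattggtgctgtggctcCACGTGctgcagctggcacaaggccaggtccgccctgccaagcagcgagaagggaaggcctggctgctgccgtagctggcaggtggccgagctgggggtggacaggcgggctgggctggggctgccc
On both strands, these letters were found in 6 of the 13 promoters (46.2%) that could be matched for 11 genes of the list, against 1978 of 32851 promoters (6.02%). The genes with a match were Per1, Tef, Bhlhe41, Ciart and Cry1, of which the last 3 were not called. The called genes Dbp, Per3, Nr1d1, Nr1d2, Hlf and Cry2 held no match in this window, nor did the second start of Per1.

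**Figure D4:**
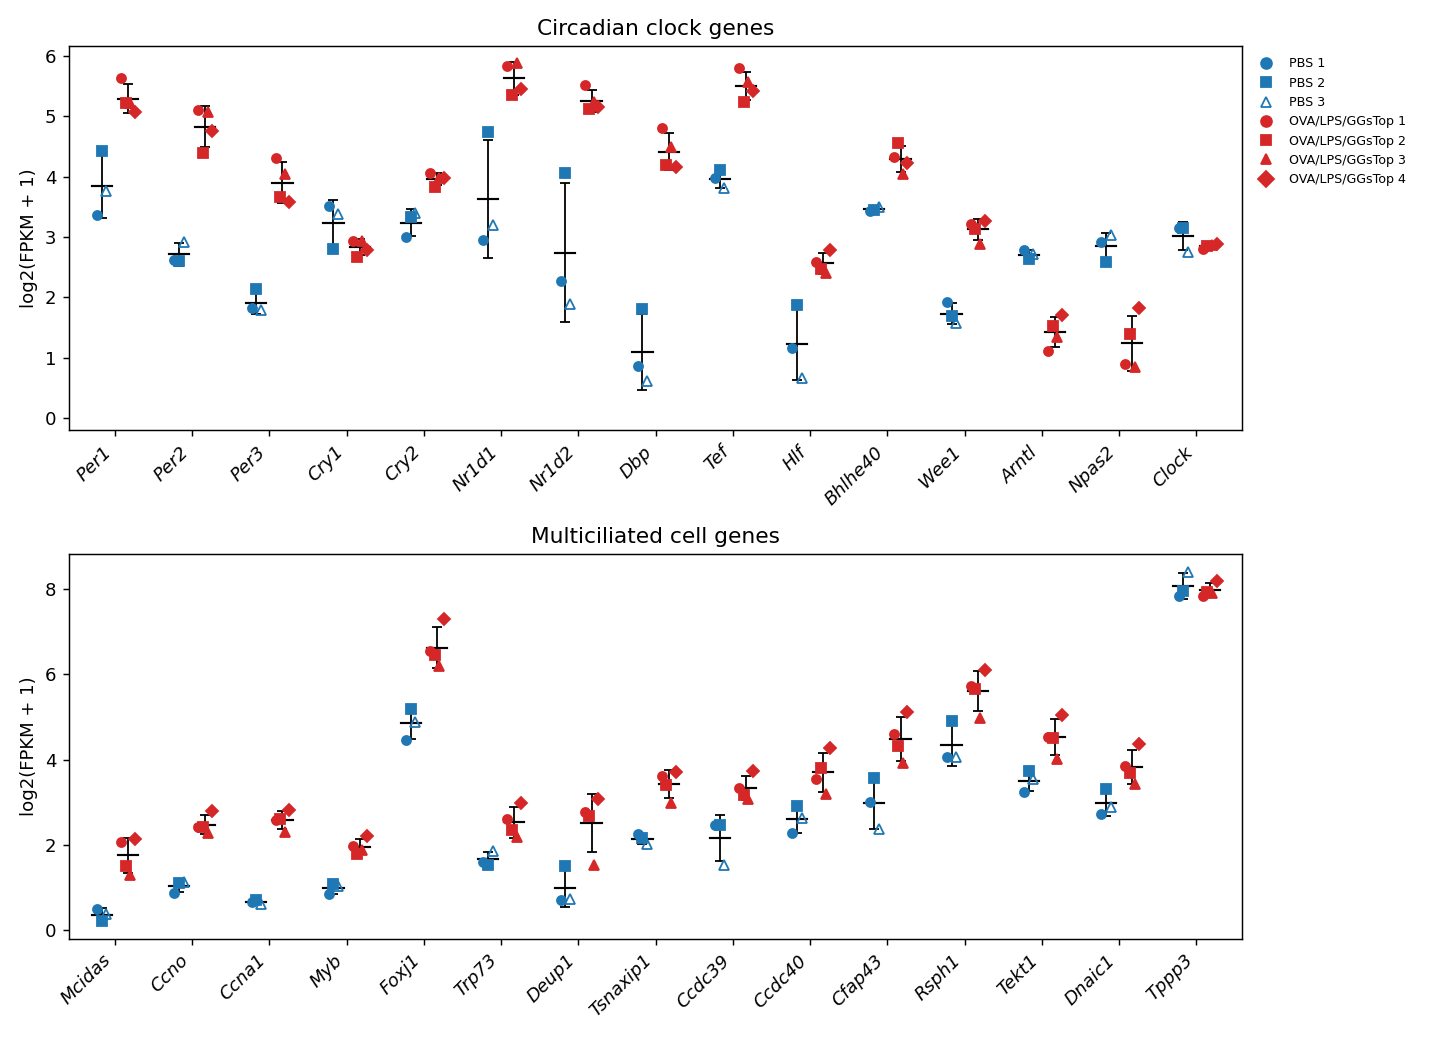
Symbols are single libraries as log2(FPKM + 1) (blue, PBS; red, OVA/LPS/GGsTop; the shape gives the library number), with the mean and SD of each group as bars; clock genes are above and multiciliated cell genes below. The Period, REV-ERB and PAR bZIP genes and Mcidas, Ccno and Ccna1 lie higher in every OVA/LPS/GGsTop library, Arntl and Npas2 lower, and Clock and Tppp3 overlap.

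Of 17 tested genes on the glucocorticoid receptor and target list 4 were called higher and none lower (median 0.63), and without PBS 2 7 were called higher and 1 lower. With the GC correction 6 were called higher and none lower. Tsc22d3 (GILZ), an anti-inflammatory target of the glucocorticoid receptor, was at 25.7, 35 and 23.7 FPKM in PBS 1 to 3 and at 106, 88.8, 94.6 and 72.5 FPKM in OVA/LPS/GGsTop 1 to 4. Tsc22d3 rose by 1.65 log2 units (SE 0.25, adjusted p = 0.0128). Fkbp5, the chaperone by which the receptor feeds back on itself, was at 0.968, 1.55 and 1.93 FPKM in PBS 1 to 3 and at 3.75, 4.27, 3.84 and 4.72 FPKM in OVA/LPS/GGsTop 1 to 4. Fkbp5 rose by 1.07 log2 units (SE 0.17, adjusted p = 0.0139). Neither overlapped between the groups. Klf9 was called too (log2 difference 0.82, adjusted p = 0.0333), and the fourth member, Per1, is also on the clock list. Klf15 (1.30, adjusted p = 0.0192) and Ddit4 (1.35, adjusted p = 0.0157), further receptor targets, were singled out after their values were seen. Other targets were not called: Dusp1 was at 125, 142 and 176 FPKM in PBS 1 to 3 and 129, 109.7, 101 and 78.2 FPKM in OVA/LPS/GGsTop 1 to 4 (log2 difference -0.51, 95% interval -0.94 to -0.07), and the receptor gene Nr3c1 at 27.1, 25.9 and 18.8 FPKM and 22.1, 21.2, 23.7 and 18.2 FPKM (log2 difference -0.15, 95% interval -0.44 to 0.14). Without PBS 3 and with the block 1 gene of the list was called, Fkbp5 in the first case (adjusted p = 0.025) and Tsc22d3 in the second (adjusted p = 0.0202). The call of Fkbp5 was lost without PBS 1 (0.0689) and with the block (0.0527), that of Klf9 with the block (0.056) and without any library other than OVA/LPS/GGsTop 3 or PBS 2, and those of Tsc22d3, Klf15 and Ddit4 without OVA/LPS/GGsTop 1, PBS 1 or PBS 3 (adjusted p of 0.0516 to 0.123 for these 4).

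Some heat shock genes and some genes of the endoplasmic reticulum were called. On the immediate early and heat shock list 5 of 21 tested genes were called higher and 1 lower (median -0.05), and the 5 are all chaperones. Hsph1, HSP110, was at 17, 17.2 and 8.72 FPKM in PBS 1 to 3 and at 57, 41, 68.7 and 88.2 FPKM in OVA/LPS/GGsTop 1 to 4. Hsph1 rose by 2.08 log2 units (SE 0.33, adjusted p = 0.0144). The near-identical copies Hspa1a and Hspa1b, for which the treatment of shared reads is not given, had log2 differences of 2.66 and 2.84 (adjusted p = 0.0393 and 0.0438), and Dnajb1 and Hspa8 of 1.28 and 0.77 (adjusted p = 0.0302 and 0.0472). Among all heat shock proteins and DnaJ co-chaperones by symbol, 10 of 67 tested were called higher and none lower (median 0.24). In this family none was called without PBS 3, 19 higher and 1 lower without PBS 2, 12 higher with the GC correction, and 1 with the block. No immediate early gene was called higher. Ier3, a stress-induced survival gene, fell from 146 ± 44.1 FPKM in PBS (SD, n = 3) to 60.6 ± 18.9 FPKM in OVA/LPS/GGsTop (SD, n = 4) (log2 difference -1.26, adjusted p = 0.0372), and Egr1 was at 11.1, 22.5 and 11.9 FPKM in PBS 1 to 3 and 6.68, 8.21, 5.63 and 10.3 FPKM in OVA/LPS/GGsTop 1 to 4 (adjusted p = 0.16). Of 25 tested genes of protein folding in the endoplasmic reticulum 3 were called higher and none lower (median 0.27). Called higher were 1 without PBS 3, 5 without PBS 2, 2 with the GC correction and 1 with the block. Herpud1, a component of the pathway that clears misfolded proteins, was at 38.5, 52.5 and 47.9 FPKM in PBS 1 to 3 and at 94.7, 91, 88 and 111 FPKM in OVA/LPS/GGsTop 1 to 4 (log2 difference 1.04, SE 0.15, adjusted p = 0.00965), and Sec11c and Edem1 had smaller differences of 0.50 and 0.55 (adjusted p = 0.0448 and 0.0477). On the immediate early and heat shock list no gene was called without PBS 3, 8 genes were called higher and 2 lower without PBS 2, and with the block Hsph1 alone (adjusted p = 0.0498). The call of Hsph1 was lost without OVA/LPS/GGsTop 1, PBS 1 or PBS 3, and those of Hspa1a, Hspa1b, Hspa8, Dnajb1, Ier3, Sec11c and Edem1 also without OVA/LPS/GGsTop 2 or 4 (adjusted p of 0.0507 to 0.156). Hspa1b, Hspa8 and Edem1 were lost without OVA/LPS/GGsTop 3 as well, and Hspa8 and Edem1 with the GC correction (0.0676 and 0.0688). Edem1 was lost with limma voom on recovered fragments too (adjusted p = 0.0515). With the block the calls of these 7 genes other than Hsph1 were lost (0.0565 to 0.14), while that of Herpud1 was lost without PBS 1 alone (0.0536).

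Genes that fell included a matrix protein, a vasodilator peptide, an adrenergic receptor and Wnt ligands. Spon2, a secreted matrix protein, was at 42.5, 20.8 and 65.7 FPKM in PBS 1 to 3 and at 3.45, 6.62, 6.73 and 5.82 FPKM in OVA/LPS/GGsTop 1 to 4. Spon2 fell by 2.61 log2 units (SE 0.33, adjusted p = 0.0045). Adm, the vasodilator adrenomedullin, was at 24.4, 12.2 and 21.3 FPKM in PBS 1 to 3 and at 4.68, 6, 4.38 and 7.18 FPKM in OVA/LPS/GGsTop 1 to 4. Adm fell by 1.60 log2 units (SE 0.22, adjusted p = 0.00729). Adra1a, an adrenergic receptor, was at 3.62, 2.71 and 3.12 FPKM in PBS 1 to 3 and at 0.799, 1.13, 1.08 and 0.674 FPKM in OVA/LPS/GGsTop 1 to 4. Adra1a fell by 1.11 log2 units (SE 0.13, adjusted p = 0.00303). In each of these the 4 OVA/LPS/GGsTop libraries lay together under the lowest PBS library. Eln, elastin, was at 146, 67.5 and 181 FPKM in PBS 1 to 3 and at 38.8, 52.1, 45.4 and 51.3 FPKM in OVA/LPS/GGsTop 1 to 4. Eln fell by 1.36 log2 units (SE 0.29, adjusted p = 0.0338). Eln and Col12a1 (-0.65, adjusted p = 0.0269) were the 2 genes called lower among 40 tested on the collagen and matrix list, Mmp12 the 1 called higher (median -0.14). That list held no call without PBS 3, 2 higher and 11 lower without PBS 2, 1 higher and 4 lower with the GC correction, and 1 higher and none lower with the block. Col1a1 was at 64.9, 79.2 and 84.2 FPKM and 49.7, 68.8, 66 and 95.3 FPKM in the same order (log2 difference -0.15, 95% interval -0.73 to 0.43). The ligand genes Wnt7a, Wnt2 and the growth inhibitor Cdkn2b fell by 1.48, 1.21 and 1.24 on the log2 scale (adjusted p = 0.0144, 0.0359 and 0.0144), Wnt2 being singled out after its values were seen. Grin2c, an NMDA receptor subunit, was at 11.5, 4.65 and 16.2 FPKM in PBS 1 to 3 and at 3.32, 2.85, 4.62 and 2.01 FPKM in OVA/LPS/GGsTop 1 to 4, so that PBS 2 and OVA/LPS/GGsTop 3 all but met. Grin2c fell by 1.38 log2 units (SE 0.32, adjusted p = 0.0464), and its call was lost without any library other than OVA/LPS/GGsTop 3 or PBS 2 (adjusted p of 0.103 to 0.16), with the block (0.0606) and with limma voom on recovered fragments (0.054). Hlx, a mesenchymal homeobox gene, and Rasl11a fell by 1.45 and 1.65 (adjusted p = 0.0298 and 0.0154). For Spon2, Adm and Adra1a the call held without each library in turn, but that of Adm was lost in the 7 libraries alone (adjusted p = 0.0573). Eln, Col12a1, Wnt7a, Wnt2, Cdkn2b, Hlx and Rasl11a were lost without OVA/LPS/GGsTop 1, PBS 1 or PBS 3, with Eln, Col12a1, Hlx and Wnt2 also lost without OVA/LPS/GGsTop 2 and Eln and Wnt2 without OVA/LPS/GGsTop 4 (adjusted p of 0.0516 to 0.14), and with the block Eln, Col12a1, Wnt7a and Rasl11a were lost (0.056 to 0.0823).

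Alveolar genes are given beside these. For the counts that follow, 7148 of all 14004 genes tested had a difference above 0 and 6855 below 0, and 7.54% lay lower without overlap. All 16 tested genes of the alveolar list had a difference below 0, 3 without overlap, and 2 were called, Akap5 and Etv5, at log2 differences of -1.07 and -0.76 (adjusted p = 0.0463 and 0.0496; median of the list -0.51). Without PBS 3 none of them was called and without PBS 2 3 were called lower. OVA/LPS/GGsTop 4 had the smallest sum of the alveolar list, and OVA/LPS/GGsTop 3 a sum above PBS 1 and PBS 2. The red cell list, 8 genes led by Hbb-bs, summed to 5776, 3006 and 7731 FPKM in PBS 1 to 3 and to 2734, 2248, 4229 and 1402 FPKM in OVA/LPS/GGsTop 1 to 4, with a difference below 0 in 8 of 8 genes and none called (median -0.86). In the cardiac list 14 of 14 genes had a difference above 0 and none was called (median 2.42, or 1.42 without PBS 1, 3.81 without PBS 2 and 1.93 without PBS 3). Neither list held a call without PBS 3, whereas without PBS 2, 4 red cell genes were called lower and 12 cardiac genes higher. The calls of Akap5 and Etv5 were lost without any library other than OVA/LPS/GGsTop 3 or PBS 2 (adjusted p of 0.0649 to 0.167), with the block (0.0675 to 0.137), with limma voom on recovered fragments (0.0528 and 0.053) and, for Etv5, with the GC correction (0.0501).

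Neutrophil chemokines and the pathway of the drug target gave no calls in the fit of all libraries. None of 13 tested genes of neutrophil-attracting chemokines and the IL-17 axis was called (median -0.25), and 3 were called lower without PBS 2. Cxcl1, a neutrophil attractant induced by LPS, was at 1.63, 2.17 and 1.75 FPKM in PBS 1 to 3 and 1.59, 2.35, 1.55 and 2.49 FPKM in OVA/LPS/GGsTop 1 to 4 (log2 difference 0.06, 95% interval -0.44 to 0.56). Cxcl5, an epithelial neutrophil attractant, was at 4.24, 3.67 and 0.893 FPKM in PBS 1 to 3 and 0.428, 1.92, 0.442 and 2.94 FPKM in OVA/LPS/GGsTop 1 to 4 (log2 difference -0.70, 95% interval -1.64 to 0.24). On the log2(FPKM + 1) scale, the unadjusted interval for Cxcl1 leaves out differences of 1 unit or more, while that for Cxcl5 does not. This scale understates changes in FPKM at such low values. Of 12 tested neutrophil genes 1 was called, the granule peptide Camp, at 0.35, 0.34 and 0.354 FPKM in PBS 1 to 3 and 1.49, 1.36, 1.59 and 0.981 FPKM in OVA/LPS/GGsTop 1 to 4 (log2 difference 0.80, adjusted p = 0.0262). In the fit of all libraries 2.06% of all genes tested were called higher. The neutrophil list held no call without PBS 3 and 1 on the higher side without PBS 2. The call of Camp was lost without OVA/LPS/GGsTop 1 or 2, PBS 1 or PBS 3 (adjusted p of 0.0707 to 0.101) and with limma voom on recovered fragments (adjusted p = 0.058).

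None of 8 tested γ-glutamyl transferase and γ-glutamylcyclotransferase genes was called (median -0.07), nor any of 38 genes of glutathione metabolism and NRF2 targets (median 0.02) or of 11 of the cysteinyl leukotriene pathway (median -0.05). Without PBS 2, 1 γ-glutamyl transferase family gene was called higher and 1 lower, 4 glutathione genes higher and 2 lower, and 1 leukotriene gene higher and 1 lower. With the block 1 leukotriene gene was called higher. Ggt1, the target enzyme of GGsTop, was at 0.35, 1.13 and 0.802 FPKM in PBS 1 to 3 and 0.623, 0.242, 0.595 and 0.594 FPKM in OVA/LPS/GGsTop 1 to 4 (log2 difference -0.20, 95% interval -0.62 to 0.21). At under 1.2 FPKM in every library its level rests on few fragments. Ggt5, the form that acts on leukotriene C4, was at 2.37, 1.71 and 3.03 FPKM in PBS 1 to 3 and 1.41, 1.57, 1.65 and 1.62 FPKM in OVA/LPS/GGsTop 1 to 4 without overlap, and its log2 difference of -0.38 (95% interval -0.69 to -0.06) did not pass (adjusted p = 0.175). Ggt6, a family member of unknown substrate, had a log2 difference of 0.53 (adjusted p = 0.222). These are RNA levels and say nothing of enzyme activity.

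**Figure D5:**
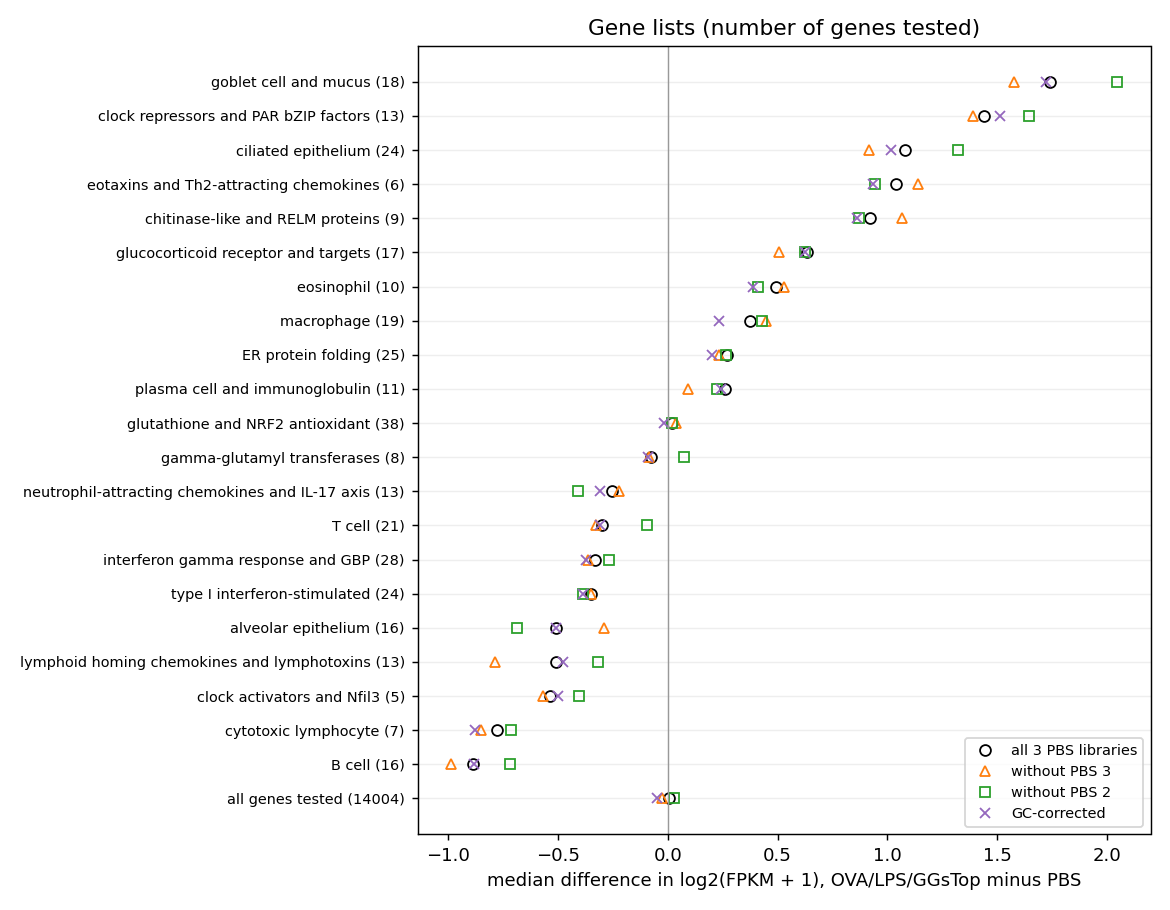
Each row is a gene list with its number of tested genes, and the x axis is the median difference in log2(FPKM + 1), OVA/LPS/GGsTop minus PBS, with all PBS libraries (circle), without PBS 3 (triangle), without PBS 2 (square) and after GC correction (cross). Among the lists shown, the goblet cell (1.74), clock repressor (1.44) and ciliated (1.08) lists lie farthest right, B cell (-0.89) and cytotoxic (-0.78) lists farthest left (the cardiac list, at 2.42, and the red cell list, at -0.86, are not shown), and every list shown keeps its side of 0 in these 4 fits except the glutathione list and the γ-glutamyl transferases, while lists not shown, among them the neutrophil, leukotriene, adipocyte, and immediate early and heat shock lists, also cross 0; the median of all genes moves between -0.05 and 0.03.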

How the data were processed

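Poly(A) RNA of the dissected airway was sequenced as 11 libraries. According to the submitters' processing notes, the authors trimmed reads with cutadapt 1.15, aligned them to mm39 with HISAT2 2.0.5, counted them with HTSeq 0.9.1 and deposited FPKM for 21899 genes, of which 3627 were at 0 in every library. Exon lengths were taken from GENCODE M21 (GRCm38). Multiplied by these lengths, the FPKM of 21415 genes (97.8%) were whole multiples of 1 fragment within 0.02 fragments in every library, which gave the depths (14513136 to 18632382 fragments in the 7 libraries compared). The deposited values being FPKM, the test was limma 3.58.1 (R 4.3.3) on log2(FPKM + 1) with a mean-variance trend, two-sided, over genes averaging 0.5 FPKM or more. One fit held all 11 libraries, so that the OVA/LPS/Vehicle libraries added to the estimate of the spread and not to the difference. Those libraries are labelled OL12, OL34, OL56 and OL78, and whether each pools more than 1 mouse is not given in the sources used here. Genes were called at an adjusted p under 0.05 (Benjamini-Hochberg), and intervals are 95%, unadjusted. Differences on this scale understate the change of genes at low values. The test was tried first on simulated libraries with independent noise of equal spread. That trial does not cover libraries as unequal as these.

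GC content was taken from GENCODE M21 (GRCm38) by gene identifier, which matched 21846 genes, and promoters from RefSeq; a motif match is a description. The members and the gene lists were chosen with earlier results of these data known, so lists are described by counts and medians without a set test. The genes named were drawn from the 10 called genes with the smallest p and the 10 with the largest difference without overlap in each direction, up to 4 members per list and direction by p, the most abundant list members and a fixed set, not all of which are given. Named outside this rule, with their values known, were Bhlhe40, Bhlhe41, Ccdc39, Ccdc40, Cfap43, Ciart, Col1a1, Cry2, Ddit4, Deup1, Dnah11, Dnaic1, Dnaic2, Epx, Fam107a, Gzmb, Hes6, Hlf, Itln1, Klf15, Muc5b, Myb, Nr1d2, Rsph1, Slpi, Tekt1, Trp73, Tsnaxip1 and Wnt2. Same-numbered PBS and OVA/LPS/GGsTop libraries deviated together from their group means (correlations across genes 0.367, 0.427 and 0.428), so the number was also fitted as a block, although PBS 1 correlated more with OVA/LPS/GGsTop 3 (0.457) and PBS 2 with OVA/LPS/GGsTop 4 (0.637). Among the other alternatives was limma voom on the recovered fragments, and the rest changed the scaling, filter, pseudocount, spread model, GC and length correction, library weights and libraries left out.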

Additional observations from a re-analysis of the deposited data

Results flagged for a closer look

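In 119 groups of 4 OVA/LPS/GGsTop libraries, 1 for each gene described, the library at one end was set against the other 3 by the size of its gap relative to the whole range on the log2(FPKM + 1) scale; chance marks about 1 group in 20, and 3 were marked. Ggt1 was lowest in OVA/LPS/GGsTop 2, at 0.242 FPKM against 0.594 to 0.623 FPKM in the other libraries of the group. Wnt2 was lowest in OVA/LPS/GGsTop 4, at 2.97 FPKM against 5.90 to 6.51 FPKM, the library that also had the smallest sum of the alveolar list (5061 FPKM). Ifng was at 0.0489 FPKM in OVA/LPS/GGsTop 3 and listed at 0 in the other 3 libraries, a value of the size that 1 fragment gives.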

How the results depend on the processing

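The count of higher genes (288) was 43 without PBS 3 and with GC correction, 1379 with array weights, 147 without a filter on low values, 30 when only the 7 libraries compared were fitted, 70 with the replicate block, and between 21 (without PBS 1) and 955 (without PBS 2) when single libraries were dropped. The count of lower genes (115) was 208 with GC correction, 215 with GC and length correction, 16 without PBS 3 and with GC correction, 1178 with array weights, 61 without a filter, 9 in the 7 libraries alone, 25 with the replicate block, 243 at the same FPKM total, and between 8 (without PBS 1) and 642 (without PBS 2) when each library was left out. Array weights gave PBS 3 a weight of 0.153 and PBS 1 one of 3.89. The cause of these shifts was not tested. With the replicate block, where the pairing takes OVA/LPS/GGsTop 4 out of the difference, 63 of the 70 higher and 13 of the 25 lower genes were among those called without it. Of the 85 called genes named, 17 were called in every alternative, 29 without PBS 3, 34 in the 7 libraries alone, 81 with GC correction and 44 with the block, and 21 without each library in turn. With limma voom on the fragments recovered from the FPKM, 228 genes were higher and 89 lower, and 13 of the genes named lost the call. These were Akap5, Camp, Ccl8, Chil4, Deup1, Dnaic1, Dnaic2, Edem1, Etv5, Grin2c, Muc5ac, Rnase2a and Tff2, with adjusted p of 0.0515 to 0.182. None of the called genes named changed direction.

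Of the 30 genes named and not called, 3 changed direction somewhere. The log2 difference of Cxcl1 was -0.058 with GC correction, -0.096 with GC and length correction, -0.014 with the replicate block, -0.133 with the block and GC correction, and -0.014 (without OVA/LPS/GGsTop 4) to 0.143 (without PBS 2) when single libraries were dropped. That of Ggt1 was 0.079 with array weights, and that of Tppp3 was 0.050 without PBS 3 and with GC correction, 0.041 with array weights, and -0.211 (without PBS 1) to 0.072 (without PBS 3) when single libraries were dropped. In the 7 libraries compared, 1 fragment on 1 kb of exon is worth 0.054 to 0.069 FPKM, and less on a longer gene. Il5, Il13, Ifng and Epx were under the filter and rest on few fragments, so no difference is read from them here.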

Other observations

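Several lists with no role in the account above held no called gene in the fit of all libraries, nor without PBS 3. The club cell and mucosal defence list had a median log2 difference of 0.55 over 17 tested genes and the complement list 0.39 over 17, against 0.01 over all genes tested. T cell genes had a median of -0.30 over 21, MHC class II presentation genes of -0.20 over 13 and proliferation genes of -0.13 over 28, while smooth muscle contractile genes were at 0.13 over 19 and the nuclear genes of the respiratory chain at 0.15 over 75. Several of these medians moved with single libraries. Without PBS 2 they were 0.95 for club cell, -0.09 for T cell, 0.24 for smooth muscle and 0.32 for respiratory chain genes. The MHC class II median was -0.07 without PBS 3. Without PBS 1 the complement and respiratory chain medians were 0.21 and 0.03. The 13 genes encoded in the mitochondrion were all above PBS with a median of 0.97 and none called, and 0.44 without PBS 3, the library with the smallest mitochondrial share (2.08%). Without PBS 2, 5 club cell, 3 smooth muscle, 2 complement, 7 respiratory chain and 6 mitochondrially encoded genes were called higher. With the block 1 club cell gene was called higher, and with the GC correction 1 complement gene was called higher and 1 MHC class II gene lower.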
